A study of Mus musculus with 27 samples.

Results

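The genes described here were Notch1, which encodes a receptor of the Notch pathway, the ligand genes Dll1, Dll3, Dll4, Jag1 and Jag2, and the Hes and Hey genes Hes1, Hes5, Hey1 and Hey2. These 10 genes were taken by symbol from 3 tables of RNA-seq counts that list 27080 genes in all, of which 23494 are in every table. The rule itself used no measured value. The study knocked down Gas41, the gene Yeats4 in the tables, whose protein binds acetylated histones through its YEATS domain. It was carried out in J1 cells, a mouse embryonic stem cell (mESC) line. Of 12 RNA-seq libraries, 3 came from cells with a control shRNA, which the labels call shCon and the study shNT. Another 3 came from cells with shGas41-1 and 2 from cells with shGas41-2, and both sets were selected for the virus and harvested 8 days after infection. The last 4 have a table of their own, in which cells labelled as carrying the same control shRNA were kept with LIF (EB day 0, 2 libraries) or grown as embryoid bodies (EBs) without LIF for 6 days (EB day 6, 2 libraries). All cells were maintained before that in serum and LIF on gelatin without feeders. Each library is bulk RNA of 1 cell line, so that fewer cells of a type and less RNA per cell cannot be told apart in any value given below.

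In the Notch pathway, a ligand on one cell binds a receptor on its neighbour, and the receptor is then cut by proteases, so that its intracellular part enters the nucleus and joins the DNA-binding protein Rbpj and Maml co-activators. Hes and Hey genes are the textbook targets of that complex and encode basic helix-loop-helix repressors. Dll1, Dll4, Jag1 and Jag2 activate receptors on neighbouring cells, whereas Dll3 is known as a divergent ligand that acts inside the cell that makes it. In the embryo, Dll1 and Dll3 are known for their part in the presomitic mesoderm, where segments form.

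The libraries held between 59224537 and 81524773 counts, so that 3 counts, taken as the floor of detection, corresponded to between 0.0368 and 0.0507 CPM, the count scaled to a common library total. Yeats4 lay between 52.1 and 63.2 CPM in shNT, between 3.50 and 4.79 CPM with shGas41-1 and between 7.68 and 8.68 CPM with shGas41-2. The 7 markers of undifferentiated mESCs summed to between 4457 and 5392 CPM in all libraries but those of EB day 6, where they summed to 1533 and 1222 CPM. Primitive streak and presomitic mesoderm markers summed to at most 17.2 CPM outside EB day 6 and to 1240 and 1769 CPM within it. The clearest differences between replicates were as follows. The third shGas41-1 library differed from the other two by a chi-square of 134 and 219 per degree of freedom, against 33.3 between these. The first shNT library held 244.7 CPM of the Zscan4 genes listed as markers of 2-cell-like cells, against 43.8 and 29.0 CPM in the others. Its chi-square per degree of freedom was 28.6 against the second shNT library and 75.9 against the third, with 33 between these. The 2 shGas41-2 libraries also differed in the Zscan4 genes, at 544.4 and 220 CPM. The third replicate of EB day 6 held more mesoderm, endoderm and trophoblast marker RNA than the second, as described below. Replicates of every group differed by more than sampling noise, so that p-values measure the spread between these libraries. The study describes its experiments in general as biological repeats, and the labels do not say which of these libraries were separate cultures, so part of that spread may be technical.

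The main result concerns Dll1, and Hes and Hey genes are known as targets of the pathway, whose activity was not measured here. The promoters of Dll1, Hes5 and Hey2 are therefore shown from RefSeq (GRCm38.p6), each from 250 bases before a transcription start site to 50 bases after it. Entries were found for 8 of the 10 genes, not for Hes1 and Hey1. The letters GTGGGAA and their reverse complement TTCCCAC, the core that Rbpj binds, were searched on both strands and are in capitals. In 32851 such promoters, 6.38% held this core. Among the 9 promoters of these genes it was found in Hes5 and Hey2 alone, with 2 matches in each, 1 of them in each orientation, at positions -226 and -83 from the start site of Hes5 and at -207 and -4 from that of Hey2. A match is a description of letters and not a site of binding. Neither the E-box CACGTG, in 7.15% of promoters, nor the T-box core TCACACC with its reverse complement, in 3.98%, was found in any of the 9.
Dll1, first start site (chr17:15375774-15376073, minus strand): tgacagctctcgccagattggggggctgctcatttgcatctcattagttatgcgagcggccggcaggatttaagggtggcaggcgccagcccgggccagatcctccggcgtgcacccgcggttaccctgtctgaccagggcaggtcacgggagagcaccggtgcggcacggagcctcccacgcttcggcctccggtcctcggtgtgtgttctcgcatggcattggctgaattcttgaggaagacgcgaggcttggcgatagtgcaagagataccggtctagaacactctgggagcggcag
Dll1, second start site (chr17:15376883-15377182, minus strand): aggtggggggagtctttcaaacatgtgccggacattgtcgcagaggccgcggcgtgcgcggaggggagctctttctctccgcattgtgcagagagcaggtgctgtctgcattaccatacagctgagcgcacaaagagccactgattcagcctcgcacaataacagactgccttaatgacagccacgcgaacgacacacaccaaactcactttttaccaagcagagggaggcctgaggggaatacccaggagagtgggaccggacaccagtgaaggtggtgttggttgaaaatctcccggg
Hes5 (chr4:154960673-154960972, plus strand): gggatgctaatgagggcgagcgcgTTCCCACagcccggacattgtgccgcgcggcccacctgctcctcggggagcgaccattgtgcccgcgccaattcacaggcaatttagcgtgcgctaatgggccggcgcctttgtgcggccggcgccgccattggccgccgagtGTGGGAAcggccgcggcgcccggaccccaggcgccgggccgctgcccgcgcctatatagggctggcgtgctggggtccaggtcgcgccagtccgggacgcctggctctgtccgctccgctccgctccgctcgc
Hey2 (chr10:30842734-30843033, minus strand): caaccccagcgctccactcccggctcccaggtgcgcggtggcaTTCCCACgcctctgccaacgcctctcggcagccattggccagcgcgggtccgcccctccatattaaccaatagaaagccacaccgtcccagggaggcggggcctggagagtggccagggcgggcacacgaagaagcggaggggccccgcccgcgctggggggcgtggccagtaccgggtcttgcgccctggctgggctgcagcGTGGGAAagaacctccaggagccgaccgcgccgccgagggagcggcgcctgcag

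A gene was called when it changed at least 2-fold at an FDR of 0.05 or less by edgeR's quasi-likelihood test. The FDR used Benjamini-Hochberg adjustment over all genes tested. Dll1 was the one gene of the 10 that was called in both knockdowns and in EBs, and the single one called in either knockdown. Hey1, Hey2 and Jag1 also had positive log2 fold changes in all 3 comparisons. In the counts that follow, rose and fell refer to called genes. Of the 10 genes, 8 passed the filter on low counts in each of the 3 main comparisons, and Dll4 and Hes5 did not. With shGas41-1, 1 of the 8 rose and 0 fell, against 7.90% of 18274 genes that rose and 2.40% that fell. With shGas41-2, again 1 rose and 0 fell, against 3.96% and 0.869% of 18405 genes. At EB day 6, 4 of the 8 rose (Dll1, Dll3, Hey1 and Hey2) and 0 fell, against 16.6% and 14.7% of 18287 genes. The median log2 fold change of the 8 genes was 0.55 for shGas41-1, 0.21 for shGas41-2 and 1.05 for EB day 6, beside 0.02, -0.01 and -0.00 over all genes tested. Lack of overlap between libraries was common. With shGas41-1, 3 of the 8 were higher and 2 lower without overlap, beside 18.1% and 24.1% of all genes tested. With shGas41-2, 1 was higher and 2 lower, beside 18.2% and 32%. At EB day 6, 6 were higher and 1 lower, beside 37.4% and 45.4%. Both knockdowns were compared with the same 3 shNT libraries, so their values are given side by side and not as 2 independent results.

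**Figure D1:**
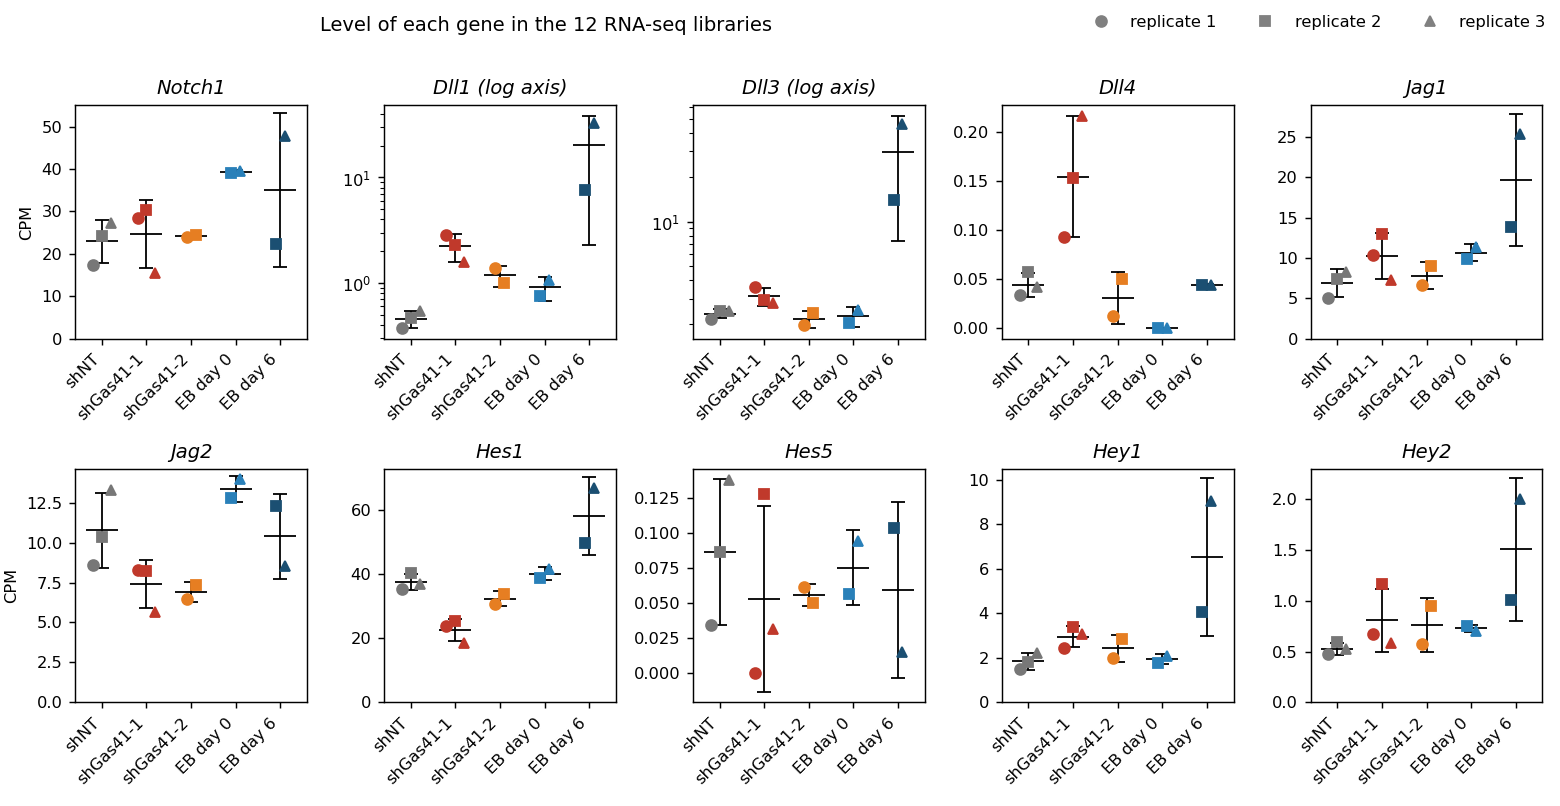
Level in CPM of each of the 10 genes in every library, by group, with Dll1 and Dll3 on log axes and the others on linear ones; points are libraries, horizontal marks group means and bars 1 SD. Dll1 is at most 0.539 CPM in shNT, above it in every other library and highest in EB day 6, and the 2 libraries of EB day 6 lie far apart for most genes.

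The order of these genes by level per length, in CPM per kilobase of exon, was headed by Hes1 in every group. In shNT, Hes1 stood at 18.4 ± 1.24 CPM per kilobase (SD, n = 3), followed by Jag2 at 2.65 ± 0.585 and Notch1 at 1.62 ± 0.354. Jag1 (1.19 ± 0.290), Hey1 (0.836 ± 0.168) and Dll3 (0.823 ± 0.0570) came next, and neighbours from Notch1 down to Dll3 overlapped over libraries. Hey2 (0.208 ± 0.0233), Dll1 (0.108 ± 0.0198), Hes5 (0.0632 ± 0.0383) and Dll4 (0.0115 ± 0.00317) stood last, Hey2 apart from the genes on both sides of it and Dll1 overlapping Hes5. Thus Dll1 was 8th of 10 in shNT. It was also 8th in shGas41-2 and EB day 0, was 7th in shGas41-1, and was 3rd at EB day 6, where Hes1 (28.5 ± 5.92, n = 2) was followed by Dll3 (10.4 ± 7.83) and Dll1 (4.83 ± 4.29). At EB day 6 the genes from Dll3 down to Notch1 could not be separated from their neighbours. With coding length in place of exon length, 31 of the 50 places over the 5 groups were kept.

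Dll1 (ENSMUSG00000014773, mm9 chr17:15504318-15513836, minus strand) encodes the Delta-like ligand that activates Notch on neighbouring cells. Its level was 0.371, 0.461 and 0.539 CPM in the 3 shNT libraries. It was 2.86, 2.27 and 1.58 CPM with shGas41-1 and 1.37 and 0.998 CPM with shGas41-2. All 5 knockdown libraries thus lay above all 3 controls. Dll1 was 5.10-fold higher with shGas41-1 (log2 fold change 2.35 ± 0.275, SE, adjusted p = 0.00263) and 2.72-fold higher with shGas41-2 (1.44 ± 0.286, adjusted p = 0.0225). The first held when any library was left out, with log2 fold changes between 2.16 and 2.51, and was 2.51 without the third shGas41-1 library and 2.22 without the first shNT library. The second lost its call without the first or the second shGas41-2 library (log2 fold changes 1.21 and 1.64), where the 1 library left is assumed to vary like those of shNT. It also lost its call without the second shNT library (adjusted p = 0.0776), with replicates left in both groups. The same held in a single fit of all 12 libraries (adjusted p = 0.126). Even the highest of these levels was low: the knockdown libraries held between 80 and 215 Dll1 counts each. The antisense gene A930024N18Rik shares 867 exon bases with Dll1 and held between 0 and 9 counts in any library. The library kit is not stated to keep strand, and the strand setting of the counting is not given. Reads over shared bases may thus be missing from both genes, and low antisense counts cannot settle this. Notch1 (1482 bases), Hes5 (433) and Dll4 (214) also share exon bases with opposite-strand genes. The part of such overlaps in the levels was not tested.

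In EBs Dll1 stood at 0.742 and 1.07 CPM on day 0 and at 7.58 and 33.2 CPM on day 6. Both day 6 libraries lay above both of day 0, and they differed from each other 4.38-fold. The fitted change was 24.1-fold (log2 fold change 4.59 ± 0.736, adjusted p = 0.00219). Without the third replicate of day 6 the log2 fold change was 3.15 and without the second it was 5.30, and it was called in both. Without the third replicate of day 0 the call was lost (4.87, adjusted p = 0.0951), with 1 day 0 library left.

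Dll3 (ENSMUSG00000003436, chr7:29076673-29087257) was not called in either knockdown. It stood at 2.18, 2.45 and 2.47 CPM in shNT, at 3.61, 2.95 and 2.78 CPM with shGas41-1 and at 1.98 and 2.40 CPM with shGas41-2. The shGas41-1 libraries lay above all shNT libraries, and of the shGas41-2 libraries 1 lay below and 1 among them (log2 fold change 0.47 ± 0.179, adjusted p = 0.10, and -0.03 ± 0.194, adjusted p = 0.927). On EB day 6 it rose from 2.03 and 2.53 CPM to 13.9 and 45.8 CPM, a 14.0-fold change (3.80 ± 0.566, adjusted p = 0.00158). Its log2 fold change was 2.69 without the third replicate of day 6 and 4.43 without the second, and the call was lost without the third replicate of day 0 (adjusted p = 0.0854). Dll1 and Dll3 are both known as genes of the presomitic mesoderm.

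Dll4 (ENSMUSG00000027314, chr2:119151520-119161698), best known as the ligand of sprouting endothelium, had at most 14 counts in any library. Its counts were 2, 4 and 3 in shNT, 7, 12 and 14 with shGas41-1, 1 and 4 with shGas41-2, 0 and 0 on EB day 0 and 3 and 3 on EB day 6. The shGas41-1 libraries therefore held 0.154 ± 0.0616 CPM against 0.0443 ± 0.0122 CPM in shNT (SD, n = 3 each), without overlap. With no filter on low counts the difference had a log2 fold change of 1.81 ± 0.668 and an adjusted p of 0.0929. In the fit of all 12 libraries, where Dll4 passed the filter, the adjusted p was 0.0483, so this call depends on which genes and libraries enter. No fold is given for EBs, where both groups were at or under the floor.

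Jag1 and Jag2, the Jagged ligands, had the highest mean levels per kilobase among the ligand genes in shNT, and neither was called. Jag1 (ENSMUSG00000027276, chr2:136907192-136942380) stood at 5.05, 7.41 and 8.33 CPM in shNT, at 10.4, 13.0 and 7.31 CPM with shGas41-1 and at 6.66 and 9.00 CPM with shGas41-2, overlapping in both comparisons. On EB day 6 it stood at 13.8 and 25.4 CPM against 9.89 and 11.4 CPM, a log2 fold change of 0.97 ± 0.282 at an adjusted p of 0.0239, which is under 2-fold and was not called. Without the second replicate of day 6 it was called at 1.36, and without the third it was 0.46. Jag2 (ENSMUSG00000002799, chr12:114146801-114167706) was the one ligand gene with lower values in all 3 comparisons. It stood at 8.63, 10.3 and 13.3 CPM in shNT, at 8.28, 8.25 and 5.66 CPM with shGas41-1 and at 6.46 and 7.36 CPM with shGas41-2. Neither set overlapped with shNT, and neither difference was called (log2 fold changes -0.47 ± 0.20 and -0.56 ± 0.197, adjusted p = 0.133 and 0.111). On EB day 6 it was 12.3 and 8.51 CPM against 12.8 and 14.0 CPM on day 0 (-0.28 ± 0.188, adjusted p = 0.237).

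Notch1 (ENSMUSG00000026923, chr2:26313423-26372183), the receptor, was not called in any comparison. It stood at 17.5, 24.1 and 27.4 CPM in shNT, at 28.4, 30.3 and 15.4 CPM with shGas41-1 and at 24.0 and 24.6 CPM with shGas41-2. The log2 fold changes were 0.17 ± 0.246 and 0.16 ± 0.182, with adjusted p = 0.658 and 0.615. At EB day 0 the 2 libraries were close, at 39.0 and 39.6 CPM, and at EB day 6 they were far apart, at 22.3 and 47.8 CPM, one below and one above both. The fitted change was -0.08 ± 0.319 on the log2 scale (adjusted p = 0.854). Its direction rested on which day 6 library was kept, with -0.74 without the third replicate and 0.39 without the second.

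**Figure D2:**
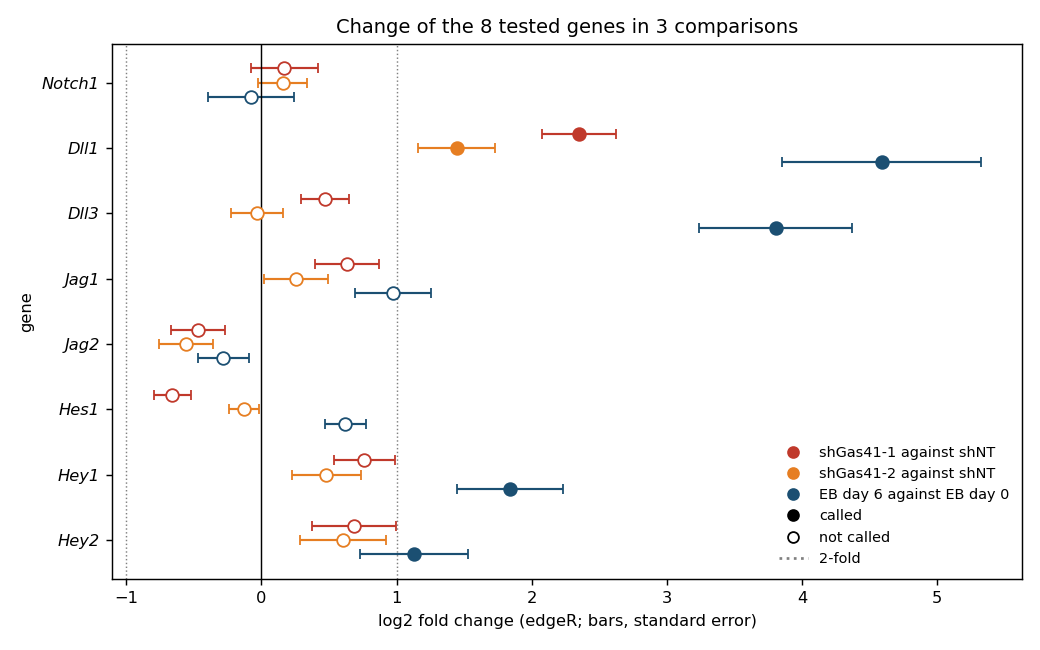
Log2 fold change of the 8 tested genes in the 3 comparisons, with the standard error as bars; filled points were called (at least 2-fold, adjusted p of 0.05 or less) and dotted lines mark 2-fold. Dll1 is filled in all 3 comparisons, and Dll3, Hey1 and Hey2 in EBs alone.

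Of the Hes and Hey genes, none was called in either knockdown, and Hey1 and Hey2 were called in EBs. Hes1 (ENSMUSG00000022528, chr16:30064470-30067882), the most abundant repressor gene of the group, stood at 35.2, 40.2 and 36.8 CPM in shNT. It was 23.7, 25.2 and 18.5 CPM with shGas41-1 and 30.8 and 33.9 CPM with shGas41-2. All 5 knockdown libraries were lower than the 3 of shNT. Of all genes tested, 24.1% were lower without overlap with shGas41-1 and 32% with shGas41-2. The log2 fold change for shGas41-1 was -0.66 ± 0.137 at an adjusted p of 0.0133, a change of 1.58-fold that stayed under the 2-fold threshold and was not called, and with shGas41-2 it was -0.13 ± 0.113 (adjusted p = 0.491). The direction of Hes1 with shGas41-1 was thus opposite to that of Dll1. Without the third shGas41-1 library its log2 fold change was -0.58, at an adjusted p of 0.0116. The adjusted p was 0.0543 without the first shGas41-1 library and 0.0727 without the second shNT library. On EB day 6 Hes1 stood at 49.5 and 66.6 CPM against 38.6 and 41.5 CPM on day 0, a log2 fold change of 0.62 ± 0.150 (adjusted p = 0.012), also under 2-fold.

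Hey1 (ENSMUSG00000040289, chr3:8663362-8667039) stood at 1.49, 1.82 and 2.22 CPM in shNT and at 2.44, 3.37 and 3.06 CPM with shGas41-1, without overlap. The log2 fold change of 0.76 ± 0.229 had an adjusted p of 0.0501, and with shGas41-2 (2.00 and 2.86 CPM) it was 0.48 ± 0.255 at an adjusted p of 0.263. Hey1 rose in EBs, from 1.78 and 2.10 CPM to 4.04 and 9.03 CPM (3.58-fold, log2 fold change 1.84 ± 0.393, adjusted p = 0.00722). That call held without either day 6 library, at 1.14 and 2.32, and was lost without either day 0 library (adjusted p = 0.0756 and 0.124). Hey2 (ENSMUSG00000019789, chr10:30552165-30562607), whose promoter holds 2 Rbpj cores, stood at 0.473, 0.591 and 0.525 CPM in shNT, at 0.679, 1.16 and 0.587 CPM with shGas41-1 and at 0.577 and 0.948 CPM with shGas41-2. Both comparisons overlapped. In EBs it rose from 0.756 and 0.706 CPM to 1.01 and 2.01 CPM (2.19-fold, 1.13 ± 0.399, adjusted p = 0.0473), a call at the edge of the threshold. It was lost without the third replicate of day 6 (log2 fold change 0.54, adjusted p = 0.32) and without the second or the third of day 0 (0.172 and 0.249), as well as with library totals alone (0.0599) and by DESeq2 (0.0526).

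Hes5 (ENSMUSG00000048001, chr4:154335032-154336480), known as the Notch target of neural progenitors, also holds 2 Rbpj cores in its promoter. It had at most 10 counts in any library, or 0.138 CPM. Of its 1363 exon bases, 433 are shared with a gene on the opposite strand, where reads may be missing as for Dll1. Its counts were 2, 6 and 10 in shNT, 0, 10 and 2 with shGas41-1, 5 and 4 with shGas41-2, 4 and 6 on EB day 0 and 7 and 1 on EB day 6. No difference was detectable at this depth. Without a filter on low counts its log2 fold changes were -0.62 ± 0.981, -0.57 ± 0.885 and -0.25 ± 1.14 in the 3 comparisons, with adjusted p = 0.698, 0.729 and 0.877.

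The 2 EB day 6 libraries differed in these genes more than in most others. The log2 ratio of the third to the second replicate, with 0.5 CPM added, had a median of -0.03 over 18287 genes, and 98.9% of them lay within 2-fold. Dll1, at 2.06, stood at percentile 99.9 of all genes, Dll3 (1.68) at 99.7, Notch1 (1.09) at 99.2, Hey1 (1.07) at 99.1, Jag1 (0.85) at 98.7, Hey2 (0.74) at 98.3 and Hes1 (0.42) at 95.8. Jag2 went the other way (-0.50, percentile 4.95). The other receptors Notch2 and Notch3 did not share this, at -0.17 and -0.09. Markers of the primitive streak and presomitic mesoderm differed in the same direction, all 7 of them. Mesp1 was at 21.8 and 84.4 CPM in the second and the third replicate, Tbx6 at 1.44 and 8.49 CPM and Msgn1 at 0.266 and 5.21 CPM, while T (406 and 495.8 CPM) and Eomes (503.2 and 593.3 CPM) differed less. Of 5 endoderm markers, Gata6, Gata4 and Sox17 were also higher in the third replicate (58.8 against 21.5 CPM for Gata6), Foxa2 was close (20.95 and 23.02 CPM in the second and the third) and Sox7 was lower (0.2515 and 0.1891 CPM). Kdr, of the endothelial list, was at 7.12 and 55.5 CPM, while Cdh5, which defines endothelium, was at 0.118 and 0.116 CPM. Neural markers summed to 176.4 and 175.1 CPM, nearly all of it Nes (169.9 and 169.7 CPM), while Pax6 was at 3.43 and 1.54 CPM. Trophoblast markers summed to 127.3 and 209.1 CPM, with Gata3 at 1.27 and 3.64 CPM and Krt8 at 67.6 and 129.1 CPM. Elf5 of that list was at or under the floor in both, at 0.0148 and 0.0436 CPM. Primed epiblast markers were lower in the third replicate, at 1335 and 1028 CPM in the second and the third, against 113.6 and 98.2 CPM on day 0. Most of that sum was Dnmt3b (983.9 and 701.9 CPM), while Otx2 was close (136.4 and 138.4 CPM). The part of these cell types in the values of Dll1, Dll3, Hey1 and Hey2 was not tested.

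**Figure D3:**
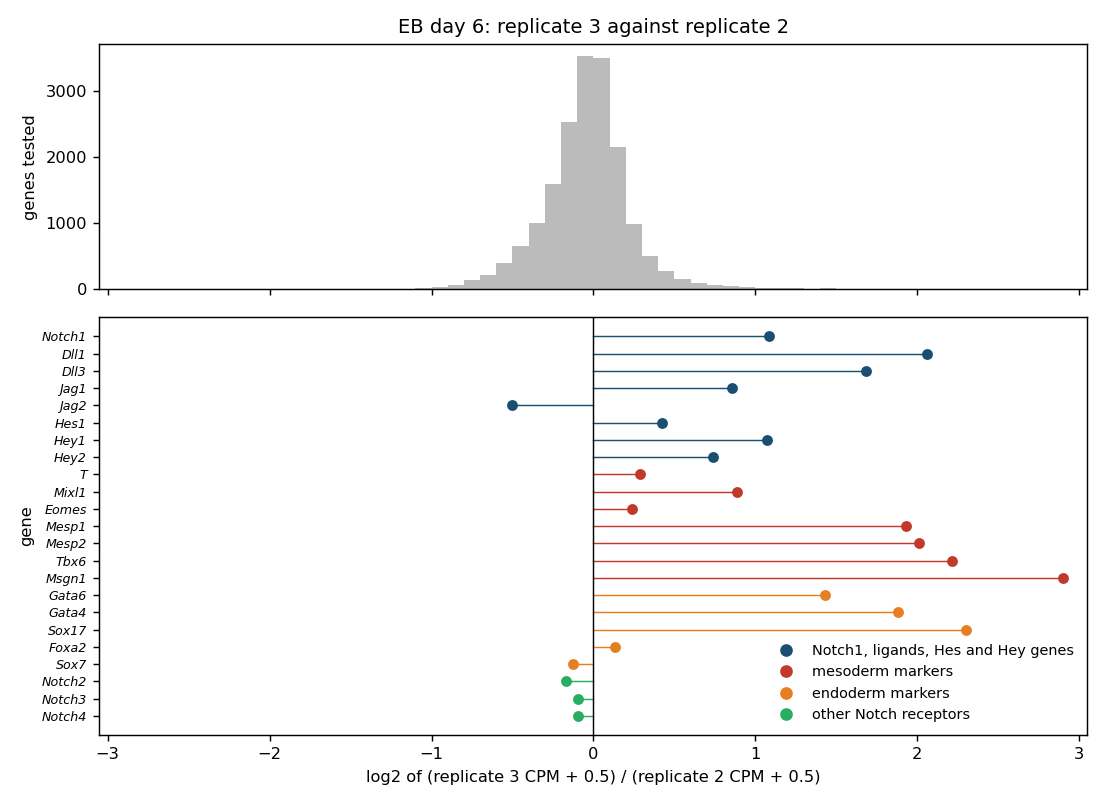
Log2 ratio of the third to the second EB day 6 library, with 0.5 CPM added to each; the upper panel counts all 18287 genes tested and the lower panel gives the 8 Notch genes, mesoderm and endoderm markers and the other Notch receptors. Dll1, Dll3, Notch1 and Hey1 lie above 1, with Mesp1, Mesp2, Tbx6 and Msgn1, whereas Notch2, Notch3 and Notch4 lie near 0.

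Marker lists that moved with the knockdowns are given beside these results. The 3 Zscan4 genes, which share near-identical sequence and are uncertain one by one, summed to between 390.5 and 677.5 CPM with shGas41-1 and to 544.4 and 220.0 CPM with shGas41-2, against 29.0 to 244.7 CPM in shNT, so that shGas41-2 overlapped with shNT. The 5 listed neural markers summed to between 17.5 and 22.7 CPM with shGas41-1, to 12.3 and 14.65 CPM with shGas41-2 and to between 10.8 and 11.4 CPM in shNT, with Neurog2 at or under the floor in all 12 libraries. Pax6 alone stood at 10.1, 11.0 and 12.5 CPM with shGas41-1, at 4.92 and 4.46 CPM with shGas41-2 and at 3.73, 1.67 and 1.26 CPM in shNT. The endothelial list, a sum carried by Pecam1, overlapped between shGas41-1 and shNT. With shGas41-2 it was 70.5 and 65.0 CPM, against 50.3 to 64.6 CPM in shNT. Its genes did not move together. Cdh5 was at 1.22, 1.57 and 0.618 CPM with shGas41-1 and at 0.552 and 1.04 CPM with shGas41-2, above its 0.135, 0.159 and 0.0829 CPM in shNT. Tek went the other way, at 2.78, 3.23 and 1.44 CPM with shGas41-1 and 2.60 and 1.84 CPM with shGas41-2, against 4.00, 4.11 and 4.97 CPM in shNT. Kdr and Tal1 overlapped with shNT. Primitive streak and presomitic mesoderm markers, a sum carried here by Eomes and Mesp2, came to between 6.52 and 11.8 CPM with shGas41-1 and to 10.9 and 11.5 CPM with shGas41-2, against 12.2 to 17.2 CPM in shNT, and Msgn1 was at 0 in 4 of these 5 libraries. T was at 0.412, 0.575 and 0.417 CPM with shGas41-1 and 0.258 and 0.524 CPM with shGas41-2, against 0.388, 0.288 and 0.207 CPM in shNT. Tbx6 was at 0.0798, 0.166 and 0.185 CPM with shGas41-1 and 0.184 and 0.112 CPM with shGas41-2. In shNT it was higher, at 0.3715, 0.433 and 0.414 CPM. Eomes was also lower in every knockdown library than in shNT, and Mixl1, Mesp1 and Mesp2 overlapped. Endoderm markers summed to between 3.52 and 6.76 CPM in the knockdowns and to between 2.79 and 3.48 CPM in shNT. Gata6 of that list was higher in every knockdown library, at 0.34 CPM or more against at most 0.2195 CPM in shNT. Gata4, Sox17 and Foxa2 overlapped with shNT in both knockdowns, and Sox7 overlapped with shGas41-1 and was higher with shGas41-2. Fibroblast markers, a sum carried by Thy1, came to between 4.19 and 5.96 CPM with shGas41-1, against 7.99 to 13.9 CPM in shNT. With shGas41-2 they overlapped with shNT, at 9.21 and 9.71 CPM. Col3a1 was at or under the floor in all 8 libraries except the first shNT library. Trophoblast markers summed to between 15.3 and 23.3 CPM in the knockdowns and to between 23.5 and 29.2 CPM in shNT, a sum carried by Krt8. Gata3 and Cdx2 of that list went the other way. Gata3 was at 3.23, 2.36 and 1.33 CPM with shGas41-1 and 1.19 and 1.023 CPM with shGas41-2, against 0.186, 0.101 and 0.0829 CPM in shNT. Cdx2 was at 1.29, 1.21 and 1.05 CPM with shGas41-1 and 0.662 and 0.774 CPM with shGas41-2, against 0.355, 0.245 and 0.0691 CPM in shNT. Among markers of undifferentiated cells, Esrrb was at 451.4, 493.8 and 238.5 CPM with shGas41-1 and 571.0 and 609.1 CPM with shGas41-2, against 711.1, 814.7 and 1015 CPM in shNT. Klf4 was at 137.7, 119.1 and 86.7 CPM with shGas41-1 and 166.9 and 149.7 CPM with shGas41-2, against 230.5, 235.3 and 324.1 CPM in shNT. Tbx3 was lower than in shNT with shGas41-1, without overlap, and overlapped with shGas41-2. The other genes of that list, Pou5f1, Sox2, Nanog and Zfp42, overlapped with shNT in both knockdowns. Primed epiblast markers overlapped between all 3 groups, at 61.3 to 104.5 CPM. The part of these cells in the levels of Dll1, Dll4 and Hes1 was not tested.

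The shRNAs were compared with each other directly over 8 libraries. None of the 9 genes that passed the filter there was called, nor was any of 19146 genes (0.00% up and 0.00% down), with 1348 genes at an unadjusted p under 0.05, and DESeq2 and edgeR's exact test called none of these 9 either. With a replicate block, which also leaves out the third library of shGas41-1 and of shNT, Dll1 was called (log2 fold change 1.08, adjusted p = 0.0109). Dll1 was 1.88-fold higher with shGas41-1 than with shGas41-2, without overlap (log2 fold change 0.91 ± 0.277, adjusted p = 0.487). Hes1 was lower with shGas41-1, again without overlap (-0.53 ± 0.140, adjusted p = 0.381), and Dll3 was higher (0.51 ± 0.193, adjusted p = 0.628). Dll4, which passed the filter in this fit, had a log2 fold change of 2.25 ± 0.726 (adjusted p = 0.524). Of the 9 genes, 3 were higher and 1 lower without overlap, beside 11.7% and 10.5% of all genes tested. Yeats4 itself was lower with shGas41-1, at 4.24 ± 0.664 CPM (n = 3) against 8.18 ± 0.714 CPM (n = 2).

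The 2 sets of control cells were compared as well, since both are labelled as undifferentiated cells with the control shRNA. None of the 8 genes tested was called between EB day 0 and shNT, against 0.458% of 18134 genes higher and 0.121% lower, and 4428 genes had an unadjusted p under 0.05. DESeq2 and edgeR's exact test called none of the 8 either. Without overlap, 4 of the 8 were higher on EB day 0 and 0 lower, beside 22.9% and 21.1% of all genes tested. Notch1 was higher on EB day 0 in both libraries, at a log2 fold change of 0.76 ± 0.174 (adjusted p = 0.056). Dll1 was higher too, at 0.97 ± 0.331 (adjusted p = 0.126), so that the EB day 0 level of 0.905 ± 0.229 CPM (n = 2) lay nearer to that of shGas41-2, at 1.19 ± 0.266 CPM (n = 2), than to that of shNT, at 0.457 ± 0.0836 CPM (n = 3). The labels do not say whether the 2 sets were grown together, so that set and group cannot be told apart here.

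Of 51 other genes of the pathway, in 8 roles, 46 were tested in each main comparison. The list was chosen with results of these data known. With shGas41-1, 5 rose and 1 fell, which is 13% of those tested beside 10.3% of all genes, and the list's median log2 fold change was 0.09. All 3 atypical ligands rose: Dlk1, an inhibitory Delta-like protein, 2.29-fold (adjusted p = 0.0409), Dlk2 2.94-fold (0.0237) and Dner 3.45-fold (0.00428). Their levels stayed low, at 5.80 ± 1.91, 0.293 ± 0.0140 and 1.04 ± 0.164 CPM (n = 3). Furin, a protease that cuts the receptor precursor among many other proteins, rose from 69.4 ± 6.38 CPM to 194.6 ± 44.0 CPM (2.99-fold, adjusted p = 0.00295). Maml2, a co-activator, rose 2.39-fold (adjusted p = 0.0396), and Dtx1, a Deltex ubiquitin ligase, fell by 1.33 on the log2 scale (adjusted p = 0.0213). None of the 3 other receptors, 5 glycosyltransferases, 4 ligand ubiquitin ligases and 3 tested Hes genes and targets was called. The number called on this list was between 2 and 7 when 1 library was left out. It was 3 without the second shGas41-1 library or the first shNT library, and 2 without the first shGas41-1 library or the third shNT library.

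With shGas41-2, Furin alone was called, which is 2.17% of those tested beside 4.82% of all genes. It stood at 198.5 and 208.8 CPM against 63.0 to 75.8 CPM in shNT (3.10-fold, adjusted p = 0.00144). The other 5 genes called with shGas41-1 were not called here. Dtx1, Dlk2 and Dner had log2 fold changes of -1.09, 1.04 and 0.87, at adjusted p = 0.0591, 0.205 and 0.13, and Dlk1 and Maml2, which overlapped with shNT, 0.74 and 0.39, at 0.181 and 0.518. The list's median log2 fold change was -0.06.

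At EB day 6, 13 of the 46 rose and 5 fell, a share of 39.1% beside 31.3% of all genes, with a median log2 fold change of 0.51. All 3 other receptors changed: Notch2 rose from 28.2 ± 6.06 to 80.9 ± 6.67 CPM (3.04-fold, adjusted p = 0.000217) and Notch3 from 31.5 ± 0.930 to 93.5 ± 4.36 CPM (3.15-fold, adjusted p = 2.04e-05), and Notch4 fell from 9.57 ± 2.52 to 2.09 ± 0.119 CPM (adjusted p = 0.000428; n = 2 in each group). Among the other Hes-type genes and targets, Nrarp, which feeds back on the pathway, rose 6.79-fold (adjusted p = 0.000428) and Hes6 2.78-fold (0.000612). Hes2 had 26 and 16 counts on day 0 and 0 on day 6, which is at least 6.99-fold lower against a floor of 3 counts per library. Lfng, a Fringe glycosyltransferase that modifies receptors, rose 4.61-fold (adjusted p = 0.00793), from 2.30 and 1.84 CPM to 4.68 and 13.2 CPM. In the nuclear complex and its co-repressors 3 rose and 2 fell. Maml3 rose 49.0-fold and Maml2 15.2-fold, while Rbpj fell from 503.9 ± 8.49 to 142.0 ± 11.8 CPM (adjusted p = 2.23e-05) and the co-repressor gene Tle2 fell by 3.44 on the log2 scale. Of the ubiquitin ligases that act on ligands, Mib1 rose 2.45-fold and Mib2 fell by 2.07 on the log2 scale. Dtx4 rose 19.0-fold, Dlk1 3.45-fold and the gamma-secretase subunits Aph1b and Aph1c 9.60-fold and 3.78-fold.

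**Figure D4:**
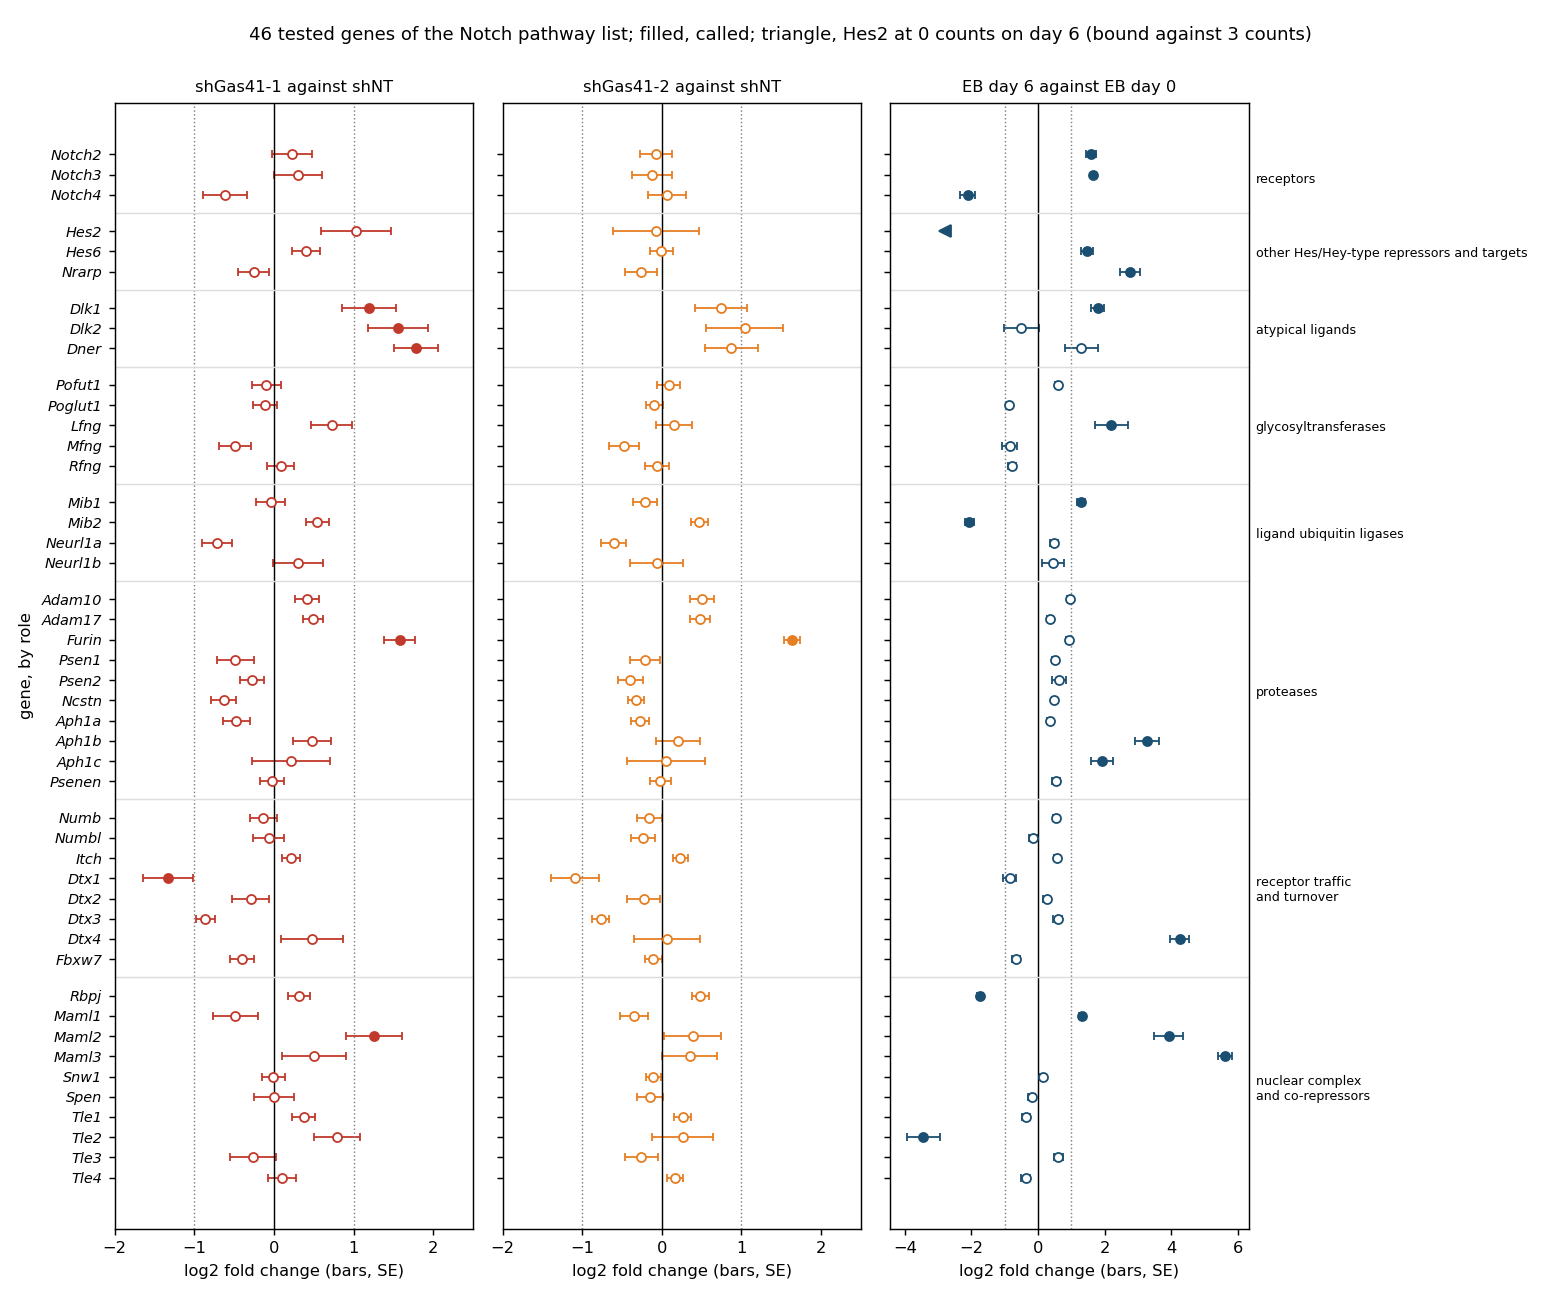
Log2 fold change of the 46 tested genes of the Notch pathway list, by role, in the 3 comparisons, with the standard error as bars; filled points were called, and the triangle is the bound for Hes2. The filled points are 6 genes for shGas41-1, Furin alone for shGas41-2 and 18 genes for EB day 6.

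The genes whose levels ran most alike over the 12 libraries were found among 15547 genes by Pearson's r of log2 levels with 0.5 CPM added, as a description, since libraries of a group share their treatment and the EB day 6 libraries lie far from the rest. Cdh6, a cadherin gene, was the most alike to both Dll1 (r = 0.983) and Hey1 (0.96), and Kcne1l (0.98) and Sox10 (0.953) came next to them. Bmper (0.994) and Emx2 (0.993) were most alike to Dll3, and Lfng (0.937) and Has3 (0.933) to Hey2. The genes most alike to Hes1 were Amz2 (0.979) and Pqbp1 (0.976), to Jag1 Nr4a2 (0.939) and AK129341 (0.936), to Jag2 Mcf2l (0.964) and Nemf (0.962), and to Notch1 Odz4 (0.892) and Gabpb2 (0.882). Cdh6 and Kcne1l were at most 1.66 and 2.41 CPM in any library. Of these 16 pairs, 0 were among the top 2 by Spearman's rank correlation and 1 over the 5 group means, so the names depend on the measure.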

How the data were processed

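RNA-seq counts of 12 libraries in 5 groups of 2 or 3 were used, and 15 ChIP-seq samples were not analysed here. The authors mapped reads to mm9 with TopHat2 (2.0.10 in the submitters' processing notes) and counted them per gene with HTSeq, and deposited raw whole-number counts. The tables also hold the authors' own fold changes, p-values and FDR, which were not used, and 0 per-sample columns were left out. Groups and replicate numbers came from the labels, in which shNT is shCon. The EB day 0 columns are headed ESC and were assigned from the table they stand in, their replicate numbers and the labels' use of EB day 0 for undifferentiated cells. The genes and lists were chosen with earlier results of these data known.

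Genes were filtered by filterByExpr (minimum count 10, minimum total 15), scaled by TMM and tested with edgeR 4.0.16 (quasi-likelihood, R 4.3.3), with Benjamini-Hochberg adjustment over all genes tested. A call needed an FDR of 0.05 or less together with at least a 2-fold change. The standard error is the size of the log2 fold change over the root of F. CPM are counts over library totals, with no TMM factor, so small fitted changes can differ from ratios of CPM. Exon lengths are unions of GENCODE exons in mm9. Alternatives were DESeq2 1.42.0, edgeR's exact test and glmTreat, other scalings, no filter, a replicate block, all libraries in 1 fit, leaving out each library, and other thresholds. The test code was tested on simulated data. Named were all 10 genes, Yeats4, genes of the pathway list called in a comparison (at most 4 per role), the 2 genes most like each gene with a mean of 1 CPM or more in a group (Gm and Rik names left out) and genes that define a marker list. The antisense gene and the single marker genes outside this rule were named after their values were seen. Depth per library, between 59224537 and 81524773 counts, sets the precision of the lowest genes only, and the spread between libraries that of the others. Floors cover counting error only.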

Additional observations from a re-analysis of the deposited data

How the results depend on the processing

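Of 312 refits of the log2 fold changes of these genes, 289 kept their direction and their side of the threshold, 17 lost a call, 1 gained one and 5 changed sign, and of 170 recounts 128 stayed within 1.5 times. None of the sign changes met the threshold for a call: Dll3 with shGas41-2 was 0.000521 under the replicate block, 0.11 without the first shGas41-2 library and 0.0021 without the third shNT library (-0.20 to 0.11 over single libraries left out), Notch1 with shGas41-2 was -0.00202 without the first shNT library (-0.00202 to 0.31), and Notch1 in EBs was 0.385 without the second day 6 library and -0.74 without the third. With shGas41-1, 2 of the genes were called in the fit of all 12 libraries and at a threshold of 1.5-fold, and 1 whichever library was left out. With shGas41-2, 0 were called by glmTreat at 2-fold and in the fit of all 12 libraries, and between 0 and 1 with a library left out. At EB day 6, 2 were called by glmTreat and between 0 and 5 with a library left out.

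On the pathway list, shGas41-1 gave 0 calls by glmTreat and between 2 and 7 with a library left out. With shGas41-2 it gave 0 by glmTreat, between 1 and 2 with a library left out, and 2 with library totals alone, by DESeq2, by the exact test, without a filter, at 1.5-fold and at an FDR of 0.1. At EB day 6 it gave 29 at 1.5-fold. Over all genes, shGas41-1 gave 312 by glmTreat, 2984 at 1.5-fold and between 1222 and 2049 with a library left out. With shGas41-2 the counts were 8 by glmTreat, 1339 by the exact test, 1478 at 1.5-fold and between 287 and 1467 with a library left out, and at EB day 6 they ran from 3710 to 5958 with a library left out. The order of levels kept 25 of 50 places without division by length and 31 with coding length, and of the 16 most alike genes 0 remained by Spearman's correlation and 1 over group means. The causes were not tested.

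Replicate numbers were not taken to pair the samples, since the labels give no shared source and the correlation of deviations was 0.00496, 0.144 and -0.387 for shGas41-1 and shNT, 0.336 and 0.239 for shGas41-2 and shNT and 0.0538 for EBs. The 2 pairs of shGas41-2 and shNT gave the highest values. With a replicate block, which for shGas41-2 also leaves out the third shNT library, 1341 genes were called there (704 without that library and with no block), and Jag1, Jag2, Notch1 and Hey1 had adjusted p between 0.00215 and 0.0115 at under 2-fold. Under it Hey2 lost its call in EBs (log2 fold change 1.05, adjusted p = 0.0509), and 1 of these genes, Dll1, was called between the shRNAs (1.08, adjusted p = 0.0109), with the third library of shGas41-1 and of shNT left out. Depth limits Dll4 and Hes5, with at most 14 counts in any library, and both share exon bases with opposite-strand genes.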
